A study of Homo sapiens with 7 samples.

Results

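The transcripts of 39 genes of tRNA charging were followed through 7 lines of K562, a human chronic myeloid leukemia cell line driven by the BCR::ABL1 fusion kinase. The 39 genes were taken by symbol from a list of 20 cytosolic aminoacyl-tRNA synthetase genes, 3 genes for scaffold proteins of the multi-synthetase complex and 16 mitochondrial synthetase genes. The count table held 25702 gene IDs, of which 10452 reached 10 CPM (read counts scaled to the library total) in at least 2 libraries and were tested. All 39 genes passed this limit, with between 231 and 29613 counts per gene and library.

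Aminoacyl-tRNA synthetases join each amino acid to its tRNA, and the charged tRNAs carry the amino acids to the ribosome. The cytosol and the mitochondrion mostly use enzymes from separate nuclear genes, whereas GARS (glycine) and KARS (lysine) each serve both compartments. When uncharged tRNA accumulates, the kinase GCN2, encoded by EIF2AK4, raises translation of the transcription factor ATF4, which is known to drive genes for amino acid synthesis, amino acid carriers and many cytosolic synthetases.

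Lines that grow in dasatinib, an ABL kinase inhibitor, had been raised by stepwise dose increases over several months, and the study asked how the transcriptome changed along the escalation. Total RNA depleted of ribosomal RNA was sequenced from 1 library of each line. The control group held the drug naive line and the DMSO line, which received only the vehicle. The early stage group held the dasatinib-resistant (DasR) lines kept at 10, 15 and 25 nM, and the late stage group those kept at 50 and 200 nM, as the study formed the groups after clustering the same libraries. All 5 DasR lines came from the same escalation of K562, so lines within a stage are neighbouring steps and not independent derivations. Libraries held 21007761 counts for drug naive, 24037893 for DMSO, 27808639 for 10 nM, 27844799 for 15 nM, 20059656 for 25 nM, 20827519 for 50 nM and 21588772 for 200 nM. No line had a repeat library, so the error given is the spread between the lines of a group.

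The lines carried the transcripts of K562 cells. All 11 markers of the line, among them GATA1, TAL1, KLF1, TFRC, HBG1, HBG2, HBZ, EPOR, BCR and ABL1, passed the CPM limit. Their summed level was 4048 CPM in drug naive and 3323 CPM in DMSO, then 13298, 12396 and 10258 CPM at 10, 15 and 25 nM, and 7588 and 5265 CPM at 50 and 200 nM. HBG2 and ABL1, at 3095 and 2605 CPM in the 10 nM line, were the most abundant of these 11 markers there. Of 17 markers of other cells, 6 passed the limit, led by KRT8 at 267 to 574 CPM. CDH5 had no count in any line, and the summed level of the 17 ranged from 665 to 1155 CPM. Whether the shift in erythroid and BCR::ABL1 transcripts had a part in the synthetase results was not tested.

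Cytosolic and mitochondrial synthetase transcripts moved apart in the resistant lines. In early stage lines, 10 of 20 cytosolic enzymes fell against control and none rose, whereas 5 of 16 mitochondrial enzymes rose and none fell, at a false discovery rate (FDR) of 0.005 in edgeR's quasi-likelihood test. Across all tested genes 18.0% were called at this threshold, 10.1% lower and 7.92% higher. The median log2 fold change was -0.52 for the cytosolic enzymes and 0.19 for the mitochondrial ones, against 0.003 for all genes. For the directions without a call, 1 cytosolic enzyme was higher and 2 mitochondrial enzymes lower at an unadjusted p under 0.05. At the same FDR of 0.005, DESeq2 called 13 cytosolic enzymes lower and none higher, and 5 mitochondrial enzymes higher and 1, VARS2, lower. With limma voom 11 cytosolic enzymes were lower and 5 mitochondrial enzymes higher, and none was called in the other directions. Over all 10452 genes DESeq2 called 3548, 1712 of them higher, and limma voom 1918, 778 of them higher. At an FDR of 0.05, which 46.5% of all genes passed (24.0% lower, 22.6% higher), 14 cytosolic enzymes were lower and 1 higher, and 7 mitochondrial enzymes were higher and 1 lower. Over all genes 54.2% had an unadjusted p under 0.05. Leaving out a line took the 5 mitochondrial calls to 0 (drug naive, DMSO or 25 nM) or 1 (10 or 15 nM), and the 10 cytosolic calls to 6 without drug naive. Calls over all genes fell from 1881 to 187, 461 and 533 without drug naive, DMSO and 25 nM, and the log2 fold change of EARS2, for example, stayed between 0.92 and 1.19. Without the 10 or the 15 nM line, calls over all genes fell less, from 1881 to 1127 and 878. These libraries are bulk RNA, in which fewer cells that express a gene and less RNA per cell cannot be told apart.

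Summed over the 20 cytosolic enzymes, the level was 10432 CPM in drug naive and 10588 CPM in DMSO. It was 6200, 6031 and 6392 CPM in the 10, 15 and 25 nM lines, which is 59.1% of the control mean. The 50 and 200 nM lines had 7151 and 7951 CPM, or 71.8% of control, so every late stage line lay between the early stage lines and the controls. The 16 mitochondrial enzymes together had 763 and 851 CPM in the controls, 915, 956 and 947 CPM in early stage lines and 932 and 1022 CPM in late stage lines. Their sum was thus above both controls in each resistant line, at 116% of control in early stage and 121% in late stage.

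**Figure D1:**
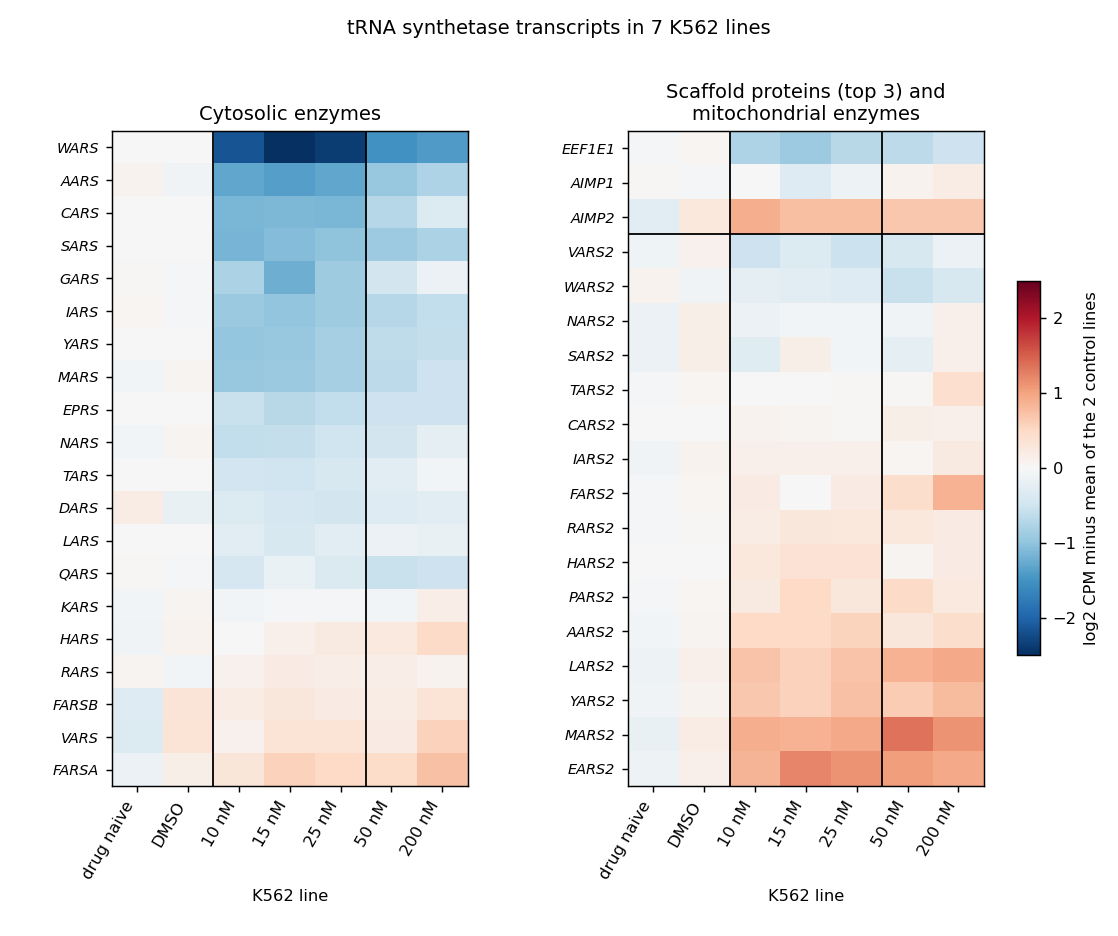
Colour gives each gene's log2 CPM minus the mean of the 2 control lines, with genes in rows and the 7 lines in columns, and values past the ends of the colour scale take its end colour. Blue fills the upper rows of the cytosolic panel in the early stage lines and fades in the late stage lines, and red fills the lowest mitochondrial rows in all 5 resistant lines.

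WARS, the tryptophan enzyme, had the largest change of the 39 genes. Its level was 1212 CPM in drug naive and 1237 CPM in DMSO, 275, 188 and 237 CPM at 10, 15 and 25 nM, and 429 and 456 CPM at 50 and 200 nM. The 3 groups did not overlap, with early stage lowest and late stage in between. Early stage lines averaged 233 ± 43.5 CPM (SD, n = 3), which was 5.25-fold lower than the 1224 ± 17.7 CPM (SD, n = 2) of control (log2 fold change -2.39, SE 0.15, FDR 0.000132). Per kilobase of transcript WARS was also the most abundant of the 39 in control, at 412 RPKM, and its early stage mean of 78.6 RPKM was below that of IARS, YARS, MARS and AARS. WARS lies on chromosome 14 at 100800127 to 100843142 on the minus strand (hg19).

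AARS, which charges alanine, had 1048 and 919 CPM in the controls, 399, 379 and 400 CPM in early stage lines and 508 and 577 CPM in late stage lines. The 3 early stage lines lay close together and far below both controls. The mean of control was 983 ± 91.3 CPM (SD, n = 2) and that of early stage 393 ± 11.7 CPM (SD, n = 3), a log2 fold change of -1.33 (SE 0.10, FDR 0.000183). The gene spans 70285886 to 70323610 on the minus strand of chromosome 16 (hg19).

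CARS, the cysteine enzyme, had 212 and 214 CPM in the controls, and 96.5, 97.5 and 96.6 CPM in early stage lines. Its late stage levels of 131 and 168 CPM filled the gap between these groups. The early stage log2 fold change was -1.14 (SE 0.11, FDR 0.000531). SARS, the serine enzyme, went from 576 and 591 CPM to 260, 275 and 291 CPM, and stood at 311 and 339 CPM in late stage lines (early stage log2 fold change -1.08, SE 0.09, FDR 0.000235). Its late stage lines therefore stayed near the early stage lines and well below the controls.

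GARS, the glycine enzyme of both compartments, differed between resistant lines. It had 872 and 829 CPM in the controls, 490, 364 and 459 CPM at 10, 15 and 25 nM, and 616 and 769 CPM at 50 and 200 nM. The 15 nM line was the lowest and the 200 nM line came close to the controls. The early stage change was -0.96 (log2, SE 0.15, FDR 0.00254). KARS, the other gene that serves both compartments, had 253 and 279 CPM in the controls, 252, 260 and 261 CPM in early stage and 255 and 299.4 CPM in late stage lines. Its groups overlapped, with an early stage log2 fold change of -0.05 (SE 0.10, FDR 0.719).

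Of the 8 enzymes of the multi-synthetase complex, IARS, MARS and EPRS fell in early stage lines. IARS, for isoleucine, had 1131 and 1048 CPM in the controls, and 572, 549 and 585 CPM in early stage lines (log2 fold change -0.94, SE 0.08, FDR 0.000334). MARS, for methionine, had 609 and 665 CPM in the controls, and 329, 332 and 359 CPM in early stage lines (log2 fold change -0.91, SE 0.09, FDR 0.000531). For both genes every early stage line was far below both controls and below both late stage lines. The MARS locus overlaps DDIT3 over 982 bases and ARHGAP9 over 13370 bases, both on the opposite strand. These are overlaps of whole gene spans, introns included, and the overlap of exons was not computed. The strand setting of the counting is not given in the sources used here. DDIT3, a transcription factor of the stress response, had 112 and 94.1 CPM in the controls and 24.6, 28.4 and 27.9 CPM in early stage lines, lower like MARS, and its part in the counts of MARS was not tested.

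EPRS, a single protein that charges both glutamate and proline, had 1070 and 1098 CPM in the controls and 737, 667 and 707 CPM in early stage lines. The early stage change was -0.62 on the log2 scale (SE 0.08, FDR 0.00115). The other members of the complex were LARS, QARS, DARS, KARS and RARS, for leucine, glutamine, aspartate, lysine and arginine, and their log2 fold changes ranged from -0.41 for DARS to 0.16 for RARS. None of them passed an FDR of 0.005, although LARS, QARS and DARS lay below both controls in each early stage line. The median log2 fold change was -0.37 over the 8 complex enzymes, of which 3 fell, and -0.75 over the 12 others, of which 7 fell, where 10.1% of all genes did. The difference between these groups was not tested.

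Outside the complex, YARS, for tyrosine, went from 727 and 718 CPM in the controls to 368, 373 and 407 CPM in early stage lines (log2 fold change -0.92, SE 0.08, FDR 0.000355). NARS, for asparagine, went from 356 and 395 CPM to 244, 247 and 264 CPM (log2 fold change -0.58, SE 0.10, FDR 0.00356). TARS, for threonine, had 558 and 547 CPM in the controls and 395, 389 and 419 CPM in early stage lines. The TARS groups did not overlap, yet its FDR of 0.00562 missed the threshold narrowly (log2 fold change -0.46, SE 0.09). Early stage lines did not overlap the controls and were lower for 14 of 20 cytosolic enzymes, against 35.2% of all tested genes.

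HARS, VARS and the phenylalanine subunits FARSA and FARSB had positive log2 fold changes in early stage lines, none of them past an FDR of 0.005. FARSA had 89.5 and 109 CPM in the controls and 121, 147 and 139 CPM in early stage lines (log2 fold change 0.45, SE 0.14, FDR 0.0315). VARS, for valine, separated the controls themselves, with 382 CPM in drug naive and 606 CPM in DMSO. FARSB did so too, at 86.0 and 133 CPM. Both therefore had wide errors, with log2 fold changes of 0.23 (SE 0.21) and 0.20 (SE 0.17). HARS, for histidine, shares 108 bases with HARS2, the divergent mitochondrial gene beside it, and had a log2 fold change of 0.11 (SE 0.12).

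Synthetases form 2 structural classes, and 10.1% of all genes were called lower. Among class I cytosolic enzymes 5 of 9 fell in early stage lines, with a median log2 fold change of -0.91, and among class II enzymes 4 of 10 fell, with a median of -0.44. EPRS, which holds a domain of each class, was counted in neither.

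All 10 cytosolic enzymes that fell in early stage lines were among those usually listed as targets of ATF4. This sublist held AARS, CARS, EPRS, GARS, IARS, LARS, MARS, NARS, SARS, TARS, WARS and YARS. It was drawn up with earlier results of these libraries known and is not independent evidence of its direction. In early stage lines 10 of its 12 genes fell, where 10.1% of all genes did, with a median log2 fold change of -0.93. None of the 8 other cytosolic enzymes was called by the quasi-likelihood test, and their median was 0.13. Of these 8, 1 was higher and 2 were lower at an unadjusted p under 0.05, which 54.2% of all genes reached. DESeq2 called 1 lower and limma voom none, where they called 3548 and 1918 of all 10452 genes, 1712 and 778 of them higher. The summed level of the 12 was 8973 and 8874 CPM in the controls, 4665, 4322 and 4722 CPM in early stage lines and 5561 and 6085 CPM in late stage lines. The other 8 enzymes summed to 1459 and 1714 CPM, 1535, 1709 and 1671 CPM, and 1590 and 1866 CPM in the same order, with overlapping groups.

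**Figure D2:**
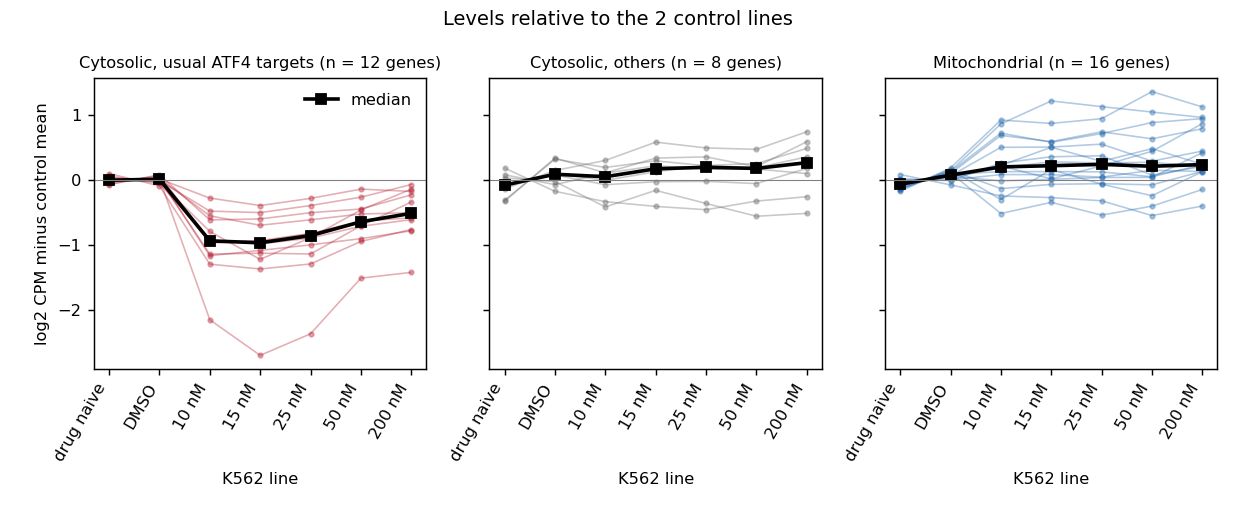
Thin lines are single genes and the thick black line is their median, as log2 CPM minus the control mean, over the 7 lines. The median of the 12 usual ATF4 targets lies between -0.97 and -0.86 in early stage lines and at -0.65 and -0.52 at 50 and 200 nM, while the other cytosolic and the mitochondrial medians lie between 0.05 and 0.26 in all 5 resistant lines.

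Promoter sequences are shown for the 6 cytosolic genes that share a short motif, of which 5 were among those that fell. ATF4 binds, with a partner, the CCAAT/ATF response element, and a core form of it, TTGCATCA, was searched on both strands (TGATGCAA in reverse) from 250 bases before to 50 bases after each RefSeq start. RefSeq sequences (GRCh38.p14) were at hand for 33 of the 39 genes, and each had a single exact match near its gene on GRCh37, the build equal to hg19. The rest of that build was not searched. The motif was in 6 of 16 cytosolic promoters (37.5%), in none of 14 mitochondrial promoters, in none of the 3 scaffold promoters and in 62 of 8339 promoters of all tested genes (0.743%). The motif is in capitals in the windows that follow, each read 5′ to 3′ on the strand of its gene.
AARS, chr16:70323578-70323607: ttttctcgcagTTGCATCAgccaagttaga
CARS, chr11:3078637-3078666: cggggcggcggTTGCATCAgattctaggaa
IARS, chr9:95055974-95056003: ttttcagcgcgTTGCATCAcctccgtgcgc
MARS, chr12:57881836-57881865: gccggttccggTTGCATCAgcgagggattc
NARS, chr18:55289036-55289065: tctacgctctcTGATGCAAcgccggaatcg
TARS, chr5:33441062-33441091: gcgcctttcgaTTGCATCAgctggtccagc

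The motif began 187 bases before the RefSeq start in AARS and within 22 bases of the start, on either side, in the other 5 genes. In AARS, CARS, IARS, MARS and TARS it reads forward along the gene, and in NARS it reads in reverse. All 6 genes with the motif were below both controls in each early stage line, and all but TARS passed the FDR threshold. Among all 62 tested genes with the motif 54.8% lay below both controls in this way and 33.9% were called lower, and among the 56 outside the 39 genes 50.0% and 28.6%, against 35.1% and 9.89% of the 8277 genes without it. These shares are counts with no test. WARS, SARS, GARS and EPRS fell without these letters in the window, WARS by more than any of the 6 cytosolic genes that have them. A match is a description of the sequence and not a measured binding site. LARS, YARS, DARS, VARS, AARS2 and VARS2 were not searched.

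The scaffold proteins of the complex split. EEF1E1 (also AIMP3), which tethers MARS, had 132 and 142 CPM in the controls, 80.2, 73.0 and 84.2 CPM in early stage lines and 87.2 and 95.3 CPM in late stage lines. Every resistant line was below both controls, and the early stage change was -0.79 on the log2 scale (SE 0.09, FDR 0.000996). AIMP2, which holds the complex together, had 14.5 and 20.8 CPM in the controls and 32.5, 29.4 and 29.3 CPM in early stage lines (log2 fold change 0.78, SE 0.16, FDR 0.00743, not called). AIMP1 had 76.9 and 74.6 CPM in the controls and 74.7, 60.8 and 69.4 CPM in early stage lines, which overlap (log2 fold change -0.15, SE 0.11). The AIMP2 gene overlaps 1588 bases of EIF2AK1 on the other strand, whose levels of 365 to 643 CPM exceed those of AIMP2 in every line.

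Among mitochondrial enzymes, EARS2, which charges glutamate, rose most in early stage lines. It had 39.1 CPM in drug naive and 47.0 CPM in DMSO, 77.7, 99.3 and 93.5 CPM at 10, 15 and 25 nM, and 88.2 and 83.3 CPM at 50 and 200 nM. All 5 resistant lines were above both controls, with early and late stage lines overlapping. Early stage lines averaged 90.2 ± 11.2 CPM (SD, n = 3), 2.09-fold the 43.0 ± 5.63 CPM (SD, n = 2) of control, with a log2 fold change of 1.07 (SE 0.14, FDR 0.00129). EARS2 lies on chromosome 16 at 23532075 to 23569052 on the minus strand (hg19), and overlaps GGA2 on the same strand over 1242 bases.

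MARS2, the mitochondrial methionine enzyme and the least abundant of the 39 per kilobase (4.34 RPKM in control), had 11.5 and 14.8 CPM in the controls. It had 24.7, 23.8 and 25.1 CPM in early stage lines and 33.5 and 28.4 CPM in late stage lines, so that the 3 groups were ordered without overlap. The log2 fold changes were 0.90 (SE 0.15, FDR 0.00305) in early stage and 1.23 (SE 0.16, FDR 0.00216) in late stage. LARS2, for leucine, also had late stage lines on top, with 52.5 and 62.1 CPM in the controls, 93.9, 85.1 and 93.5 CPM in early stage and 105 and 110 CPM in late stage lines. Its early stage log2 fold change was 0.66 (SE 0.10, FDR 0.00256).

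YARS2, for tyrosine, had 16.1 and 18.3 CPM in the controls and 27.6, 25.8 and 28.7 CPM in early stage lines (log2 fold change 0.67, SE 0.12, FDR 0.00425). AARS2, for alanine, had 50.1 and 54.5 CPM in the controls and 73.8, 74.0 and 76.4 CPM in early stage lines (log2 fold change 0.51, SE 0.09, FDR 0.00389). In both genes the early stage lines lay close together and above both controls. The YARS2 call was lost without any 1 of the 7 lines and in 4 of the other settings, with FDRs of up to 0.0401, while its log2 fold change stayed between 0.56 and 0.75. YARS2 shares 18161 bases of its locus with DNM1L on the opposite strand, so its counts may carry the same uncertainty over strand as those of MARS. So may those of AARS2, whose locus shares 8776 bases with TMEM151B and 14617 bases with an unnamed gene, both on the opposite strand. Whether exons of these genes overlap was not checked.

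The 11 mitochondrial enzymes that were not called had early stage log2 fold changes from -0.47 for VARS2 to 0.34 for PARS2. VARS2, for valine, had 87.8 and 102 CPM in the controls and 65.9, 74.2 and 64.8 CPM in early stage lines (SE 0.12, FDR 0.0151), below both controls in every line. WARS2, for tryptophan, was also below both controls in all 5 resistant lines, with an early stage log2 fold change of -0.29 (SE 0.11, FDR 0.0616). IARS2, the most abundant mitochondrial member per kilobase at 65.7 RPKM in control, had 220 and 246 CPM in the controls and 253 to 254 CPM in early stage lines. Early stage lines were all above both controls for 10 of 16 mitochondrial enzymes, where 35.4% of all genes were.

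The E-box CACGTG, the letters bound by MYC with its partner MAX, was searched in the same windows and reads alike on both strands. It was in 3 of 14 mitochondrial promoters (21.4%), in 1 of 16 cytosolic ones (6.25%), in that of AIMP2 and in 1113 of 8339 of all (13.3%), so these shares rest on few genes. In early stage lines EARS2 and MARS2 rose with it in the window, CARS2 (log2 fold change 0.07) and AIMP2 (0.78) held it and were not called, IARS held it and fell, and LARS2 and YARS2 rose without it. Of all 1113 tested genes with it 12.4% were called higher and 7.37% lower, against 7.38% and 10.5% of the 7226 without it, again with no test. The windows of all 5 genes that hold it are shown with the motif in capitals.
EARS2, chr16:23568670-23568697: agggagaagccCACGTGtgctattccat
MARS2, chr2:198570071-198570098: tgcgcctctcaCACGTGctgtcagaacg
CARS2, chr13:111358849-111358876: gctgggatgcaCACGTGcttcgctaaca
AIMP2, chr7:6049110-6049137: cgggcgctggcCACGTGcaggtaggagc
IARS, chr9:95056149-95056176: ggttcgttttcCACGTGgaggcgcaaaa

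For 16 amino acids the list held an enzyme of each compartment, which gave 17 pairs because the phenylalanine enzyme has 2 cytosolic subunits, and EPRS stands in the glutamate and the proline pair. The ratio of cytosolic to mitochondrial level, per kilobase, was below both controls in all early stage lines for 13 of 17 pairs and in both late stage lines for 12. Of single genes among all those tested, 35.2% lay below both controls in this way in early stage and 35.2% in late stage. No such share was computed for ratios of other gene pairs. AARS to AARS2 was 29.9 and 24.1 in the controls, 7.72, 7.32 and 7.48 in early stage lines and 11.4 and 11.6 in late stage lines. WARS to WARS2 was 33.9 and 38.6, then 9.66, 6.73 and 8.76, then 18.6 and 17.8. MARS to MARS2 was 57.4 and 48.8 in the controls, and lay between 13.0 and 16.9 in the 5 resistant lines.

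In the alanine and tryptophan pairs the late stage ratios lay above those of early stage and below both controls, as in 6 of 17 pairs, whereas the methionine ratio stayed at its early stage level. VARS to VARS2 went the other way, from 3.79 and 5.19 in the controls to between 6.75 and 8.25 in the resistant lines. The ratios are descriptive. With 3 lines against 2, an exact permutation test cannot go below a p of 0.10.

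**Figure D3:**
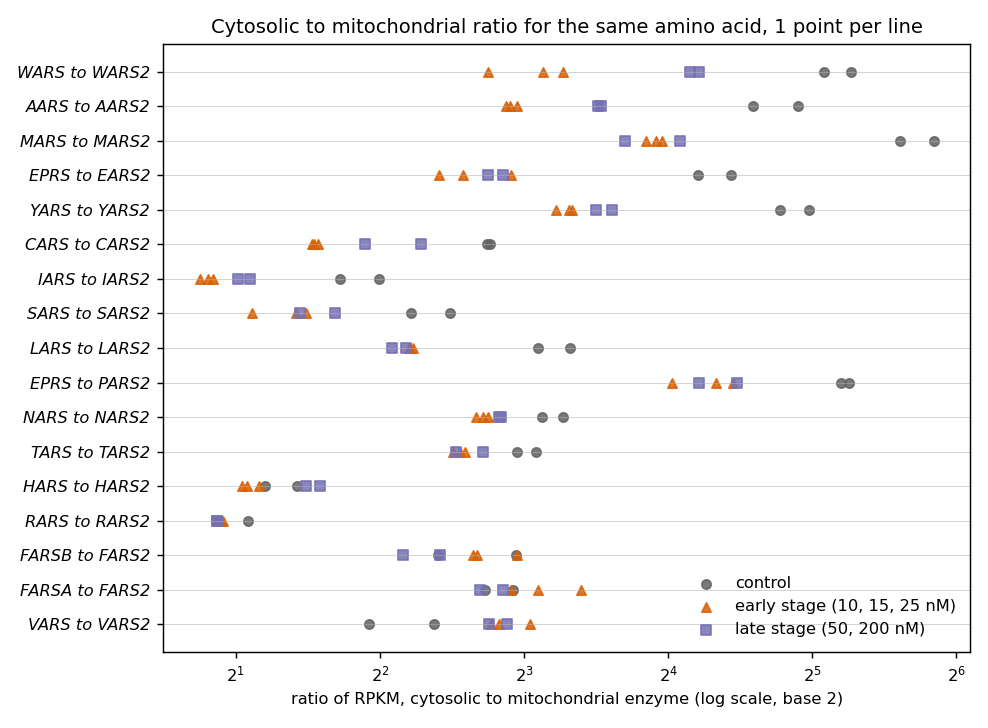
Each point is a line, with the ratio of RPKM of the cytosolic to the mitochondrial enzyme for the same amino acid on a log axis, sorted by the early stage difference. Orange triangles (early stage) lie left of both grey circles (control) in 13 of 17 pairs, and the VARS to VARS2 pair lies to the right.

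In late stage lines, against the same 2 controls, 5 of 20 cytosolic enzymes fell and 3 of 16 mitochondrial enzymes rose, where 7.98% of all genes were called, 4.56% lower and 3.42% higher. Fitting only the late stage and control lines left 1 cytosolic and 0 mitochondrial enzymes called, and 335 genes in all instead of 834. DESeq2 called 9 cytosolic enzymes lower and 1 higher, 4 mitochondrial enzymes higher, and 2503 genes in all. The 5 cytosolic genes called by edgeR were WARS (log2 fold change -1.47, SE 0.17, FDR 0.00150), SARS (-0.84, SE 0.10, FDR 0.00144), AARS (-0.86, SE 0.11, FDR 0.00205), IARS (-0.67, SE 0.09, FDR 0.00263) and YARS (-0.61, SE 0.09, FDR 0.00346). The 3 mitochondrial genes were MARS2, LARS2 (log2 fold change 0.90, SE 0.11, FDR 0.00194) and EARS2 (log2 fold change 0.99, SE 0.15, FDR 0.00362). The median log2 fold change was -0.32 for cytosolic and 0.23 for mitochondrial enzymes, against -0.0036 for all genes. At an FDR of 0.05, 10 cytosolic enzymes were lower and 1 higher, and 6 mitochondrial enzymes were higher and 1 lower, where 33.9% of all genes passed, 17.6% lower and 16.2% higher. At 0.005, 0 cytosolic and 0 mitochondrial enzymes passed without the drug naive, the DMSO, the 25 nM, the 50 nM or the 200 nM line, while 3 and 3 passed without the 10 nM line and 4 and 3 without the 15 nM line. Over all genes the late stage calls went from 834 to 30, 95, 276, 301 and 292 in the first 5 of these fits.

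Late against early stage, 18 of 20 cytosolic enzymes had a positive log2 fold change, but no member was called between the stages. QARS was lower in both late stage lines than in any early stage line. At an FDR of 0.005, edgeR's test called 0.00% of all genes between late and early stage, while 3450 genes (33.0%) had an unadjusted p under 0.05. Of the cytosolic enzymes 10 of 20 were higher at that unadjusted level and none lower, and of the mitochondrial ones 3 of 16 were higher. DESeq2, which called 1135 of the 10452 genes and 565 of them higher, called 5 cytosolic enzymes higher, and limma voom called no gene. At an FDR of 0.05, where 6.60% of all genes were higher, 5 cytosolic enzymes passed, namely WARS (log2 fold change 0.92, SE 0.15), CARS (0.62, SE 0.11), GARS (0.66, SE 0.15), AARS (0.47, SE 0.10) and YARS (0.31, SE 0.08).

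All 10 cytosolic enzymes that fell in early stage were higher in both late stage lines than in any early stage line, and all 10 were higher at 200 nM than at 50 nM. These genes were picked for low early stage values, and of all 1053 genes called lower in early stage 57.0% were likewise above every early stage line in both late stage lines and 62.7% were higher at 200 nM than at 50 nM. All 10 also remained below both controls in both late stage lines, as did 92.7% of the 1053. Of all 39 genes 21 had late stage lines above every early stage line, against 26.4% of all tested genes. Early and late stage were each compared with the same controls, so their fold changes are not independent.

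With the 5 resistant lines taken as 1 group against the 2 controls, 8 of the 39 genes passed an FDR of 0.005, where 8.08% of all genes did (3.30% higher, 4.78% lower), and 22 passed an FDR of 0.05, where 32.4% did. The 8 became 0 without drug naive, DMSO or 25 nM, between 1 and 3 without 10, 15 or 50 nM and 13 without 200 nM, and they became 17 with DESeq2, 4 with a limit of 1 CPM and 2 without a filter. Over all genes the calls went from 845 to 15, 38 and 195 without drug naive, DMSO and 25 nM, to 251, 421 and 304 without 10, 15 and 50 nM, to 1379 without 200 nM and to 2655 with DESeq2, and they were 850 with the limit of 1 CPM and 750 without a filter. At 0.005, AARS, SARS, IARS, YARS, EPRS and EEF1E1 were lower, and EARS2 and YARS2 were higher. EARS2 had a log2 fold change of 1.04 (SE 0.13, FDR 0.00204) and SARS one of -0.98 (SE 0.11, FDR 0.00137). WARS, with a log2 fold change of -1.95 (SE 0.32), missed the threshold at an FDR of 0.00515.

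Among 11 tested genes for other steps of charging, 2 rose and 2 fell in early stage lines, where 7.92% and 10.1% of all genes did, with a median log2 fold change of 0.09. PTRH2, a peptidyl-tRNA hydrolase, rose by 1.26 on the log2 scale (SE 0.13, FDR 0.000605), and GATC, a subunit of the mitochondrial enzyme that makes glutaminyl-tRNA, rose by 0.66 (SE 0.09, FDR 0.00177). AARSD1, which removes wrongly charged serine from alanine tRNA, fell by 1.05 (SE 0.12, FDR 0.000872), and DTD1, which removes D-amino acids from tRNA, fell by 0.83 (SE 0.10, FDR 0.000968).

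Of 22 tested tRNA maturation genes 5 rose and 2 fell in early stage, where 7.92% and 10.1% of all genes did, with a median log2 fold change of 0.52. The 2 that fell are about the share of all genes. TSEN54, a subunit of the tRNA splicing endonuclease, TRMT10C, of mitochondrial RNase P, and ELAC2, which trims tRNA 3′ ends, rose by 1.02, 1.21 and 0.81 on the log2 scale. TSEN15, another splicing endonuclease subunit, fell by 1.97 (SE 0.18, FDR 0.00045), and XPOT, which exports tRNA from the nucleus, fell by 0.87 (SE 0.08, FDR 0.000514). XPOT had 683 and 645 CPM in the controls and 374, 338 and 376 CPM in early stage lines, a drop of the same order as in YARS and MARS. RNA polymerase III, which transcribes tRNA genes, had 2 of 20 genes higher, where 7.92% of all genes were, with a median of 0.20. These 2 of 20 are about the share of all genes. GTF3C4, a subunit of the tRNA gene factor TFIIIC, rose by 0.69 (SE 0.13, FDR 0.00479).

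Genes for amino acid synthesis and carriers fell together with the cytosolic synthetases, with 16 of 19 lower in early stage lines (median log2 fold change -1.19) and 9 of 19 in late stage lines (median -0.89), where 10.1% and 4.56% of all genes were lower. ASNS, asparagine synthetase, had 937 and 956 CPM in the controls, 187, 177 and 200 CPM in early stage lines and 261 and 301 CPM in late stage lines. As in WARS and AARS, its late stage lines lay between the other groups (early stage log2 fold change -2.33, SE 0.10, FDR 6.17e-05). PHGDH, which opens serine synthesis, and ALDH1L2, a mitochondrial folate enzyme, had early stage log2 fold changes of -2.39 (SE 0.13) and -2.98 (SE 0.16). TTGCATCA was in 2 of 14 promoters of this list.

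Of 17 tested ATF4 and stress factors, 12 fell in early stage and 5 in late stage lines, where 10.1% and 4.56% of all genes did, with median log2 fold changes of -1.34 and -1.21. ATF4 itself had 566 and 469 CPM in the controls, 321, 343 and 355 CPM in early stage lines and 350 and 382 CPM in late stage lines, all below both controls. The change was -0.61 (log2, SE 0.11, FDR 0.00381) in early and -0.50 (SE 0.12, FDR 0.0169) in late stage. ATF5, a related factor, fell by 3.73 (SE 0.25, FDR 0.000152), and STC2, a secreted glycoprotein, fell by 2.91 (SE 0.18, FDR 0.000118). EIF2AK4, the sensor of uncharged tRNA, had an early stage log2 fold change of -0.35 (SE 0.12, FDR 0.046), and MYC one of 0.23 (SE 0.08, FDR 0.0511). Protein, phosphorylation and tRNA charging were not measured in these libraries.

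**Figure D4:**
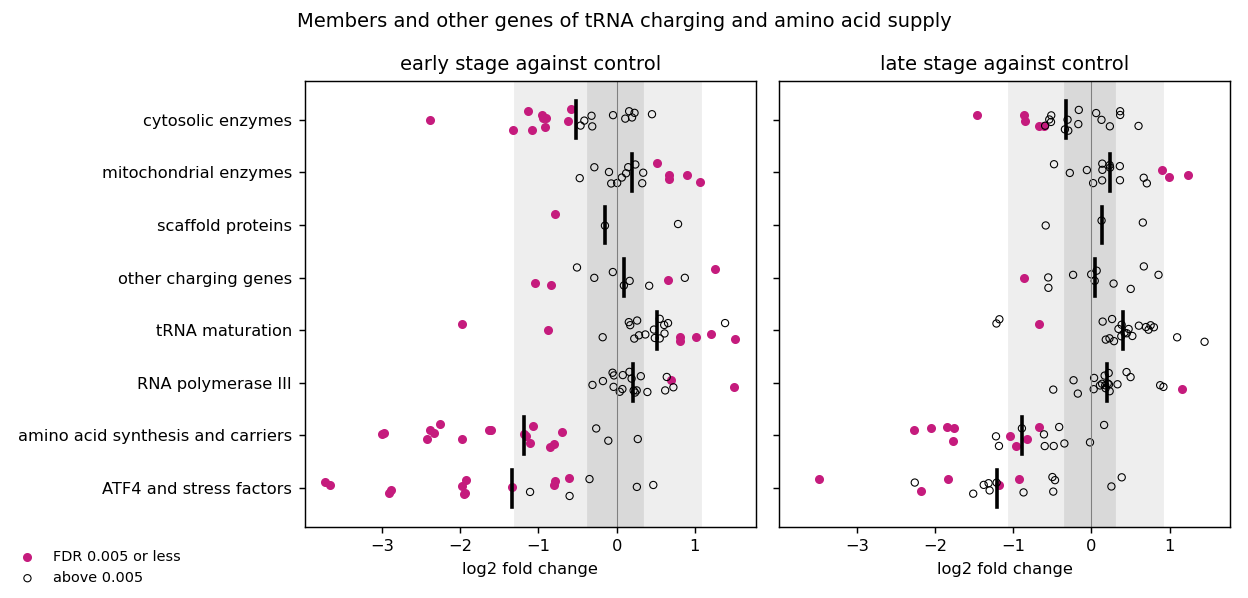
Each point is a gene's log2 fold change, with early stage against control on the left and late stage on the right, by list. Filled points have an FDR of 0.005 or less, black bars are list medians, dark grey holds the middle 50% and light grey the middle 90% of all 10452 genes, and the medians of the cytosolic enzymes and of the amino acid and ATF4 lists lie left of 0.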

How the data were processed

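RNA of 7 K562 lines was sequenced as paired reads from a directional kit. Raw counts per gene, made by the authors with STAR alignment to hg19 and featureCounts, were deposited without normalization. Versions and the strand setting of the counting are not given in the sources used here. Tables of the authors' comparisons (fold changes, average expression and significance) were used only for gene symbols, lengths and chromosomes. The members and lists were chosen with earlier results of these data known. Names come from the lists fixed for this work: any of the 39 members, at most the 3 genes of smallest p per direction, list and comparison, and ATF4, MYC and EIF2AK4, with exceptions marked where they occur. Some genes of these lists are not reported here.

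The 10452 genes that reached 10 CPM in 2 or more of the 7 libraries were kept. After TMM scaling, counts were tested with glmQLFit and glmQLFTest in edgeR 4.0.16 (R 4.3.3), with 1 coefficient per group, all 7 libraries in the fit and Benjamini-Hochberg adjustment over 10452 genes at an FDR of 0.005, and of 0.05 as an alternative. The common dispersion was 0.026. CPM values use TMM-scaled library sizes, RPKM values divide them by the deposited gene length, and log2 CPM for figures used a prior count of 2. Stages follow the study, and doses the labels. P-values measure the spread between lines of a group, which has no repeat library. Counts of pairs of lines within a group differed beyond sampling noise (chi-square per degree of freedom 21.1 to 70.1). Libraries held 20059656 to 27844799 counts, which gives each member at least 231 counts. DESeq2 1.42.0, limma 3.58.1 (voom), other scalings and filters, and leaving out each line were alternatives. Functions were tested on simulated counts. Member positions come from GENCODE on GRCh37, and overlaps between genes are those of whole gene spans, introns included.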

Additional observations from a re-analysis of the deposited data

Results flagged for a closer look

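Late stage lines differed from early stage lines at an FDR of 0.05 in edgeR's quasi-likelihood test for 5 cytosolic synthetases, all higher in late stage. The log2 differences were 0.92 for WARS (FDR 0.0179), 0.47 for AARS (FDR 0.027), 0.62 for CARS (FDR 0.0206), 0.66 for GARS (FDR 0.033) and 0.31 for YARS (FDR 0.0491), and in each gene both late stage lines were above all 3 early stage lines. How many of all tested genes passed this threshold between the stages depended strongly on which late stage line was left out. In each such fit late stage is 1 library and its spread is taken from the other groups.

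Early and late stage lines lay on opposite sides of both controls for 5 of the genes outside the 39 on the lists described here, all named after their values were seen. The share of all tested genes with this pattern was not computed, so whether 5 is unusual cannot be told. RPP25, a subunit of RNase P, was above the controls in early stage and below them in late stage, with a late against early log2 fold change of -2.60 (FDR 0.02). RPP21, of the same enzyme, went the other way by 0.52 (FDR 0.0511), as did GATA1, the erythroid transcription factor, by 0.49 (FDR 0.0447). PECAM1, an endothelial and blood cell adhesion molecule, differed by 2.54 (FDR 0.102) at levels of at most 12.2 CPM, and GTF3C1, of the tRNA gene factor TFIIIC, by 0.081 (FDR 0.483). Groups of 2 and 3 lines are too small for a search for outlying lines.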

How the results depend on the processing

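In the comparisons of early with control, late with control and late with early stage, none of the 24 called fold changes of members changed sign under an alternative. Of the 117 member fold changes there 20 did so in at least 1 alternative, none of them called and the largest of them 0.23 in size, such as VARS (0.23 to -0.08) and FARSB (0.20 to -0.10) in early stage. Of 1638 combinations of a member's fold change with an alternative, 98 lost an FDR of 0.005, 82 of them by leaving out a line, and 25 gained it. No paired analysis was possible because the labels give the lines no replicate numbers. Without a line in turn, the number of cytosolic enzymes called was 6 to 11 in early stage, where the drug naive line gave the 6, 0 to 4 in late stage and 0 to 1 between stages. For mitochondrial enzymes it was 0 to 4 in early stage and 0 to 3 in late stage. Early stage mitochondrial calls fell from 5 to 0 without drug naive, DMSO or the 25 nM line, and to 1 without the 10 or the 15 nM line, while calls over all genes went from 1881 to 187, 461 and 533 in the first 3 of these fits. Without the 10 or the 15 nM line, calls over all genes were 1127 and 878. Without a control or a late stage line its group holds 1 library, whose spread is assumed to be that of the other groups. The median log2 fold change of cytosolic enzymes minus that of mitochondrial enzymes was -0.71 in early stage, with a range of -0.78 to -0.70. In late stage it was -0.56, with a range of -0.68 to -0.49. Members called over all 5 resistant lines went from 8 to between 0 and 13.

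With an FDR of 0.05, calls were 8 mitochondrial in early stage, 11 cytosolic and 7 mitochondrial in late stage, 5 cytosolic between stages and 22 members over all resistant lines. DESeq2 gave 10 cytosolic in late stage, 9 lower and 1 higher, where it called 2503 of all 10452 genes instead of 834. It gave 5 cytosolic between stages and 17 members over all resistant lines. Fitting only the groups compared left 1 cytosolic and 0 mitochondrial enzymes in late stage. Early stage mitochondrial calls were 3 with total counts as the scaling and 3 with a limit of 1 CPM. Early stage calls over all genes were 1833 of 10452 with total counts and 2128 of 14899 with the limit of 1 CPM, against 1881 of 10452. That limit gave 4 members over all resistant lines. No filter gave 2, and 1 cytosolic enzyme between stages. Between stages 295 of 22776 genes were then called, 185 of them higher, against 0 of 10452 with the filter. The causes were not tested. For all resistant lines against control only the number of members called was recomputed, and these alternatives were added after seeing the data.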
